A study of Homo sapiens with 34 samples.

Results

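The transcriptomes of MPS-PM and APS-PM cells were compared across all genes. APS-PM is the standard paraxial mesoderm (PM) protocol of the study, in which human pluripotent cells are brought to anterior primitive streak (APS) on day 1 and moved to PM medium on day 2. MPS-PM cells received the same PM medium after a day in conditions for mid primitive streak (MPS). The comparison uses 4 of the 34 libraries of the series, 2 of each group, taken by the condition in their labels. All were made from wild-type ESI017 cells, an established line of human embryonic stem cells, and collected at 48 h.

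On day 1, activin (30 ng/ml) and bFGF (20 ng/ml) were common to both groups. APS cells were given 4 µM CHIR99021, an inhibitor of GSK3 that activates WNT signaling, and 0 ng/ml BMP4. MPS cells were given 6 µM CHIR99021 and 40 ng/ml BMP4, so an effect of BMP4 and an effect of the higher CHIR99021 dose cannot be told apart. On day 2 both groups shared bFGF (20 ng/ml), the BMP receptor inhibitor LDN-193189 (250 nM) and the activin and nodal receptor inhibitor A-8301 (1 µM). BMP4 and activin were therefore absent from the medium of the last 24 h, and their receptors were inhibited. The methods of the study list no CHIR99021 in PM medium, while a figure legend does. The text of the study also describes WNT activation as part of PM induction, and as strong on day 2. As a model, these are cultures of a single line, and RNA was taken from whole wells. Fewer cells of a type and less RNA per cell cannot be told apart in such libraries.

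Paraxial mesoderm lies beside the neural tube and gives rise to the somites, from which vertebrae, ribs, skeletal muscle and dermis form. Its cells leave the primitive streak and pass through a presomitic state marked by the transcription factors TBX6 and MSGN1, in which a clock of Notch and WNT target genes sets the rhythm of segmentation. Position along the body axis is recorded in the HOX genes, which are opened in their order along each cluster under the influence of WNT, FGF and the CDX factors. In the embryo, BMP is strong at the posterior end of the streak, where cells take lateral and extra-embryonic mesoderm fates, and weak at its anterior end.

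APS-PM libraries held 20913478 and 23439799 estimated counts, and MPS-PM libraries 15858749 and 17938738. Levels are given as CPM, the estimated count of a gene scaled by the total of its library, always with replicate 1 first. They are not corrected for gene length, so the level of a gene is compared between libraries and not with that of another gene. Where CPM are summed over a list, long and abundant members weigh most. A library with no count for a gene allows up to 3 counts, which is 0.128 to 0.189 CPM in these 4 libraries and covers counting error only. Differences are log2 fold changes of MPS-PM over APS-PM from edgeR's quasi-likelihood test with Benjamini-Hochberg adjustment over 17895 genes, and genes with an adjusted p under 0.05 were called. The spread between replicates was estimated over all 17 conditions. An exact permutation test of 2 libraries against 2 cannot give a p below 0.333, so every call rests on this shared estimate. The labels number the replicates and the design text of the series calls them biological, without saying what separates them.

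The label of the cells was first checked against markers. TBX6 was at 163 and 171 CPM in APS-PM and at 161 and 153 CPM in MPS-PM. MSGN1 was at 60.8 and 49.7 CPM in APS-PM and at 68.8 and 63.5 CPM in MPS-PM. Both presomitic factors were thus present in every library. MEOX1, a transcription factor of formed somites, was at 2.49 and 0.768 CPM in APS-PM and had no count in either MPS-PM library, and its difference was not called (adjusted p = 0.249). SOX17, a definitive endoderm factor, was at 2.44 and 0.213 CPM in APS-PM and likewise had no count in MPS-PM (adjusted p = 0.90). ISL1, a factor of lateral and cardiac mesoderm, stayed under 1 CPM in all 4 libraries. HAND1, a defining factor of lateral mesoderm, was above 1 CPM in all 4 and higher in both MPS-PM libraries. Its difference was 2.31 (adjusted p = 0.0794). In the lateral and cardiac list 10 of 17 genes lay above both APS-PM libraries and 2 below, where 13.0% and 17.3% of all genes did.

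Between the groups, 80 of 17895 genes were called, which is 0.447% of those tested. MPS-PM was higher in 35 of them (0.196%) and lower in 45 (0.251%). All 80 are annotated as protein coding, and in each the 2 libraries of a group lay on the same side of the 2 libraries of the other group. Such a separation was found in 13.0% of all genes tested for higher levels in MPS-PM and in 17.3% for lower levels, so separation alone is common here. The difference was at least 1 log2 unit in 28 of the 35 rises and in 38 of the 45 falls. Over all genes the median difference was -0.003 on the log2 scale, and the median size of a difference was 0.17.

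The transcriptome as a whole was compared by distance. Over the 14647 genes that averaged 1 CPM or more, the Euclidean distance in log2(CPM + 1) between the mean profiles of MPS-PM and APS-PM was 44.5. Averaging shortens a distance between means, so single libraries are compared with single libraries here. The 2 APS-PM libraries lay 58.2 apart, and the 2 MPS-PM libraries lay 54.6 apart. Single libraries of different groups were 57.3 and 52.3 apart where they had the same replicate number, and 62.4 and 66.1 apart where the numbers differed. Libraries of different groups were thus closer than replicates in 1 of these 4 pairs, between the replicate distances in 1 and farther than both in 2. At 24 h, before PM medium, the mean profiles of MPS and APS cells were 58.1 apart.

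**Figure D1:**
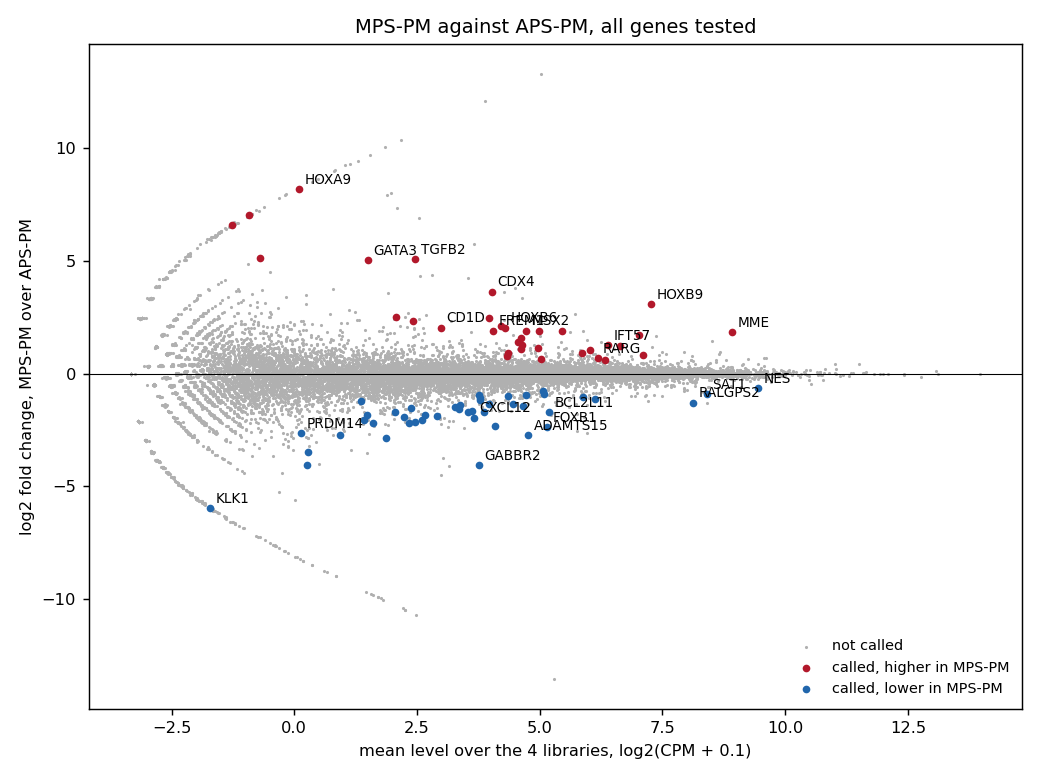
Each point is 1 of the 17895 genes tested, with the mean level of the 4 libraries on the x axis as log2(CPM + 0.1) and the log2 fold change of MPS-PM over APS-PM on the y axis, and colored points are the 35 genes called higher and the 45 called lower. Most genes lie near 0, while TGFB2 is at 5.06, GATA3 at 5.02 and GABBR2 at -4.07.

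Promoter sequences are shown for CDX4, GATA3 and HOXA9, regulators of position and fate that were low in APS-PM and called higher in MPS-PM. Each line holds the 250 bases before the gene start on the strand of the gene, from RefSeq with build GRCh38.p14, at chrX:73446803-73447052 (plus strand) for CDX4, chr10:8045083-8045332 (plus strand) for GATA3 and chr7:27165538-27165787 (minus strand) for HOXA9. Capitals mark matches to 4 short motifs searched on both strands: the CDX motif TTTATG, the SMAD1/5 motif GGCGCC, the TCF/LEF motif CTTTGA and the T-box motif AGGTGT.
CDX4: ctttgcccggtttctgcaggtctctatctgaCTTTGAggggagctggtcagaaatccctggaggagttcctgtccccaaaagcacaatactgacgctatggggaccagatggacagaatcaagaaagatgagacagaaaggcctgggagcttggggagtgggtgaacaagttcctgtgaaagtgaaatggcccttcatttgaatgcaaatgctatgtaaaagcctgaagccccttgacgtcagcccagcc
GATA3: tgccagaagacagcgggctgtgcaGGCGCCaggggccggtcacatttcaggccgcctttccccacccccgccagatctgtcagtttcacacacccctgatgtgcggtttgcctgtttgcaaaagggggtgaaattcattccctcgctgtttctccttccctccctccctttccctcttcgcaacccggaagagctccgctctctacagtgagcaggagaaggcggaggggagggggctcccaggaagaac
HOXA9: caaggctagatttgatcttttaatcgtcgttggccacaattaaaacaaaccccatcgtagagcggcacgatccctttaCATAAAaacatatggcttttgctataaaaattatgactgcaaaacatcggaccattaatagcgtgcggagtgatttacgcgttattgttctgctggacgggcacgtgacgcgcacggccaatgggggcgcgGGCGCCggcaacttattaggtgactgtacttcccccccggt

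In the CDX4 window the TCF/LEF letters began 219 bases before the gene start. The GATA3 window held the SMAD1/5 letters, starting 226 bases before the gene start. In the HOXA9 window the CDX letters stood on the opposite strand, starting 172 bases before the gene start, and the SMAD1/5 letters started 41 bases before it. A match is a description of the sequence and does not show binding. Of the 35 genes called higher, 28 had a window in the table, and so had 31 of the 45 called lower. The CDX motif was found in 5 of the 28 (17.9%), in 1 of the 31 (3.23%) and in 10.0% of all 27305 windows. The SMAD1/5 motif, which reads the same on both strands, was found in 7 of the 28 (25.0%), in 10 of the 31 (32.3%) and in 16.1% of all windows. The TCF/LEF motif stood in 3 of the 28 (10.7%), in 2 of the 31 (6.45%) and in 11.4% of all. The T-box motif, the core of the site bound by TBX6 and TBXT, stood in 0 of the 28, in 3 of the 31 (9.68%) and in 9.66% of all. These shares are descriptive, and no window was listed for HOXB6, HOXB8 or HOXB9. The 27305 windows were not limited to the genes tested here, as the called genes were, so the shares are not matched.

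CDX4 encodes a caudal homeobox factor that acts upstream of HOX genes in the posterior body, and its gene spans chrX:73447053-73455171. It was at 2.34 and 2.52 CPM in APS-PM and at 27.9 and 32.2 CPM in MPS-PM. The MPS-PM libraries were thus far above both APS-PM libraries, by 3.63 ± 0.52 on the log2 scale (SE, 95% interval 2.55 to 4.71, adjusted p = 0.00278). Without APS-PM replicate 1 the adjusted p was 0.0788. CDX4 was the only called gene of a list of 12 CDX factors and HOX cofactors. Its paralogs CDX1 and CDX2 were present at high levels in both groups. CDX2 was at 166 and 194 CPM in APS-PM and at 179 and 243 CPM in MPS-PM (adjusted p = 1), and CDX1 at 164 and 190 against 143 and 172 CPM (adjusted p = 1). For both paralogs the libraries of the 2 groups overlapped.

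Among the HOX genes, 3 of 37 tested were called, all higher in MPS-PM, where 0.196% of all genes were called higher. In 21 of the 37 the MPS-PM libraries lay above both APS-PM libraries, as in 13.0% of all genes, and in 0 they lay below both, as in 17.3% of all genes. The median difference of the list was 0.73 log2 units. HOXB9 (chr17:48621156-48626358) was at 20.3 and 45.3 CPM in APS-PM and at 242 and 308 CPM in MPS-PM, a difference of 3.07 ± 0.62 (SE, adjusted p = 0.0425). HOXB6 (chr17:48595751-48604992) was at 6.65 and 8.76 CPM in APS-PM and at 33.4 and 29.4 CPM in MPS-PM, a difference of 2.03 ± 0.40 (adjusted p = 0.0325). HOXA9 had no count in APS-PM and was at 2.59 and 1.28 CPM in MPS-PM, at least 14.2-fold higher than the floor of 3 counts per library (adjusted p = 0.0313). Calls among the HOX genes were thus limited to HOXA9, HOXB6 and HOXB9, and a trend along a cluster was not tested. All 3 were lost when any of the 4 libraries was left out. The differences in those fits were 2.62 to 3.76 for HOXB9 and 1.85 to 2.24 for HOXB6.

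No call was made at the anterior end of either cluster. HOXB1, HOXB2, HOXB4 and HOXB5 differed by between -0.31 and 0.22 log2 units, and in each the libraries of the groups overlapped (adjusted p = 1). HOXB3 was at 163 and 264 CPM in APS-PM and at 363 and 289 CPM in MPS-PM (difference 0.61, adjusted p = 1). HOXB7 was at 3.83 and 6.37 CPM in APS-PM and at 10.0 and 10.3 CPM in MPS-PM (difference 1.00, adjusted p = 0.941). HOXB8 was at 12 and 17.3 CPM in APS-PM and at 80.7 and 99.9 CPM in MPS-PM, a difference of 2.63 ± 0.58 that missed the threshold (adjusted p = 0.0744). On the HOXA cluster, HOXA5 differed by 0.35, while HOXA7 was at 1.25 and 7.66 CPM against 25.0 and 65.0 CPM (difference 3.35, adjusted p = 0.129). HOXA7 was picked out after its values were seen. HOXC8, with 1 count in each APS-PM library, was at 1.33 and 1.00 CPM in MPS-PM (adjusted p = 0.103). Genes of 1 cluster are neighbors on the chromosome and are not independent of each other.

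**Figure D2:**
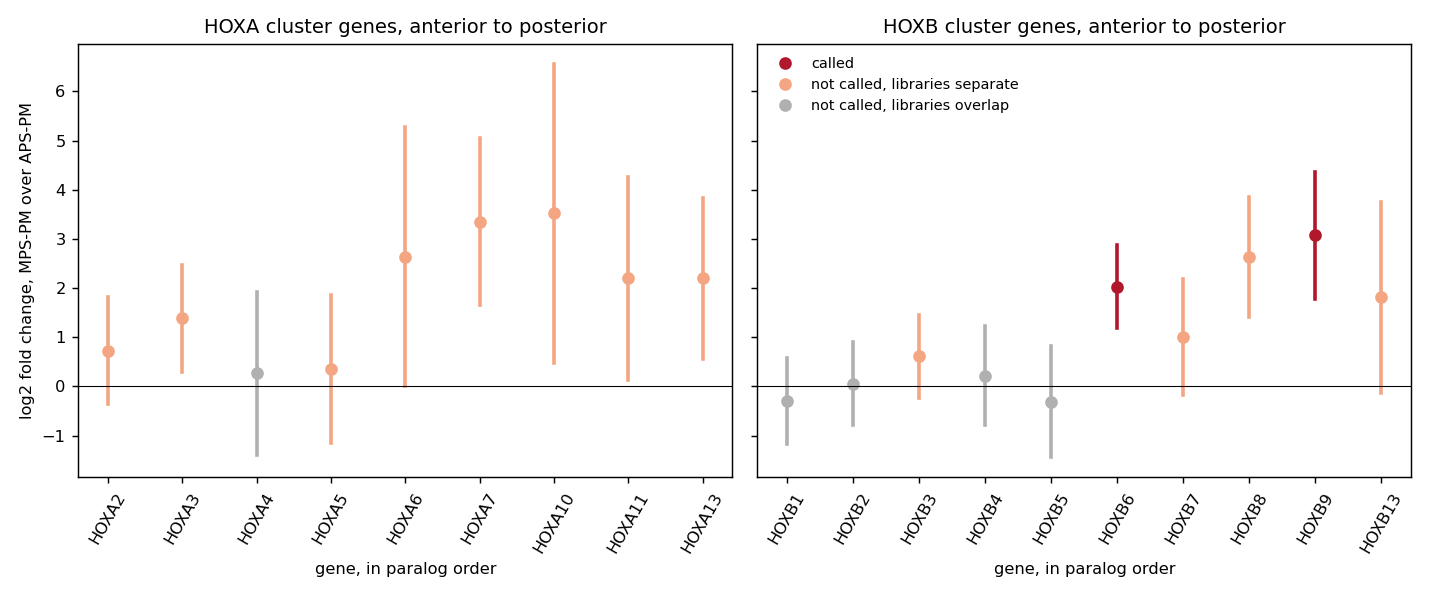
The log2 fold change of MPS-PM over APS-PM with its 95% interval is plotted in paralog order for genes of the HOXA cluster (left) and the HOXB cluster (right) that have an interval. HOXA9 has none and is left out with some other genes, and the colors tell called genes, uncalled genes with separate libraries and uncalled genes with overlapping libraries apart. HOXB1, HOXB2, HOXB4 and HOXB5 lie near 0, and the highest value in the HOXB cluster is that of HOXB9, at 3.07.

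GATA3 and TGFB2 had the 2 largest rises among called genes at 5 CPM or more in a group. GATA3, a zinc finger factor of amnion, trophoblast and intermediate mesoderm, was at 0.239 and 0.0853 CPM in APS-PM and at 5.86 and 4.77 CPM in MPS-PM (5.02 ± 0.83, adjusted p = 0.000409). TGFB2, a secreted ligand of the TGF-beta family, was at 0.239 and 0.384 CPM in APS-PM and at 7.51 and 13.6 CPM in MPS-PM (5.06 ± 0.61, adjusted p = 0.000409). Both genes were below 1 CPM in APS-PM. The other listed markers of GATA3-expressing lineages were not called by edgeR. In the amnion list 1 of 14 was called, GATA3 itself, where 0.196% of all genes were called higher. TFAP2A, an amnion and surface ectoderm factor, was at 0.239 and 0.427 CPM against 2.27 and 1.17 CPM (adjusted p = 0.131), and DESeq2 called it higher. In 6 of the 14 the unadjusted p of edgeR was under 0.05, in either direction, as in 1101 of all 17895 genes. The amnion list summed to 491 and 404 CPM in APS-PM and to 393 and 413 CPM in MPS-PM, its median difference was -0.28, and 5 of its genes lay below both APS-PM libraries (17.3% of all genes did) while 4 lay above (13.0%). In the intermediate mesoderm list 1 of 9 was called, again GATA3, beside the same 0.196% of all genes. PAX2, a kidney lineage factor, was at 6.18 and 10.1 CPM against 18.7 and 16.2 CPM (adjusted p = 0.863).

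Of the other rises, 6 are given with their levels. FREM1, an extracellular protein of the basement membrane, was at 5.98 and 7.95 CPM in APS-PM and at 25.1 and 26.8 CPM in MPS-PM (1.90 ± 0.24, adjusted p = 0.000409). MME, the membrane protease neprilysin, was at 169 and 254 CPM against 699 and 803 CPM (1.84 ± 0.38, adjusted p = 0.0337). CD1D, which presents lipid antigens, was at 4.23 and 1.96 CPM against 14.5 and 10.7 CPM (2.03 ± 0.29, adjusted p = 0.00213). In all 3 genes both MPS-PM libraries lay clearly above both APS-PM libraries. ABCC9, a regulatory subunit of potassium channels, rose from 0.622 and 1.84 CPM to 5.61 and 8.32 CPM (adjusted p = 0.0162), and PRSS23, a secreted serine protease, from 12.5 and 25.0 CPM to 53.9 and 83.0 CPM (adjusted p = 0.0353). DOK6, an adaptor of receptor tyrosine kinases, rose by 2.44 on the log2 scale from 7.07 and 2.56 CPM to 40.3 and 12.1 CPM (adjusted p = 0.0377), with a wide gap between the libraries of each group.

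The remaining genes of the 15 largest rises were NR0B1, an orphan nuclear receptor (2.32), EFHD1, a mitochondrial calcium-binding protein (2.09), MSX2 (1.89) and SARM1, an NAD-cleaving enzyme known from axon degeneration (1.89), beside CDX4, HOXB9 and HOXB6. IFT57, a subunit of the transport complex of cilia, lay outside the 15 and is named because its call held whichever library was left out. It was at 51.8 and 47.0 CPM in APS-PM and at 115 and 120 CPM in MPS-PM (1.26 ± 0.16, adjusted p = 0.000409). Besides IFT57, the calls of TGFB2, GATA3, FREM1, CD1D and GABBR2 also held without each of the 4 libraries. MME, MSX2 and SARM1 were called in none of those 4 fits, with highest adjusted p of 0.508, 0.138 and 0.379. ABCC9 and EFHD1 lost their calls without APS-PM replicate 1 (0.307 and 0.253) and without MPS-PM replicate 2 (0.176 for both), and PRSS23, DOK6 and NR0B1 lost theirs without 3 of the 4 libraries, with highest adjusted p of 0.556, 0.729 and 0.245.

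**Figure D3:**
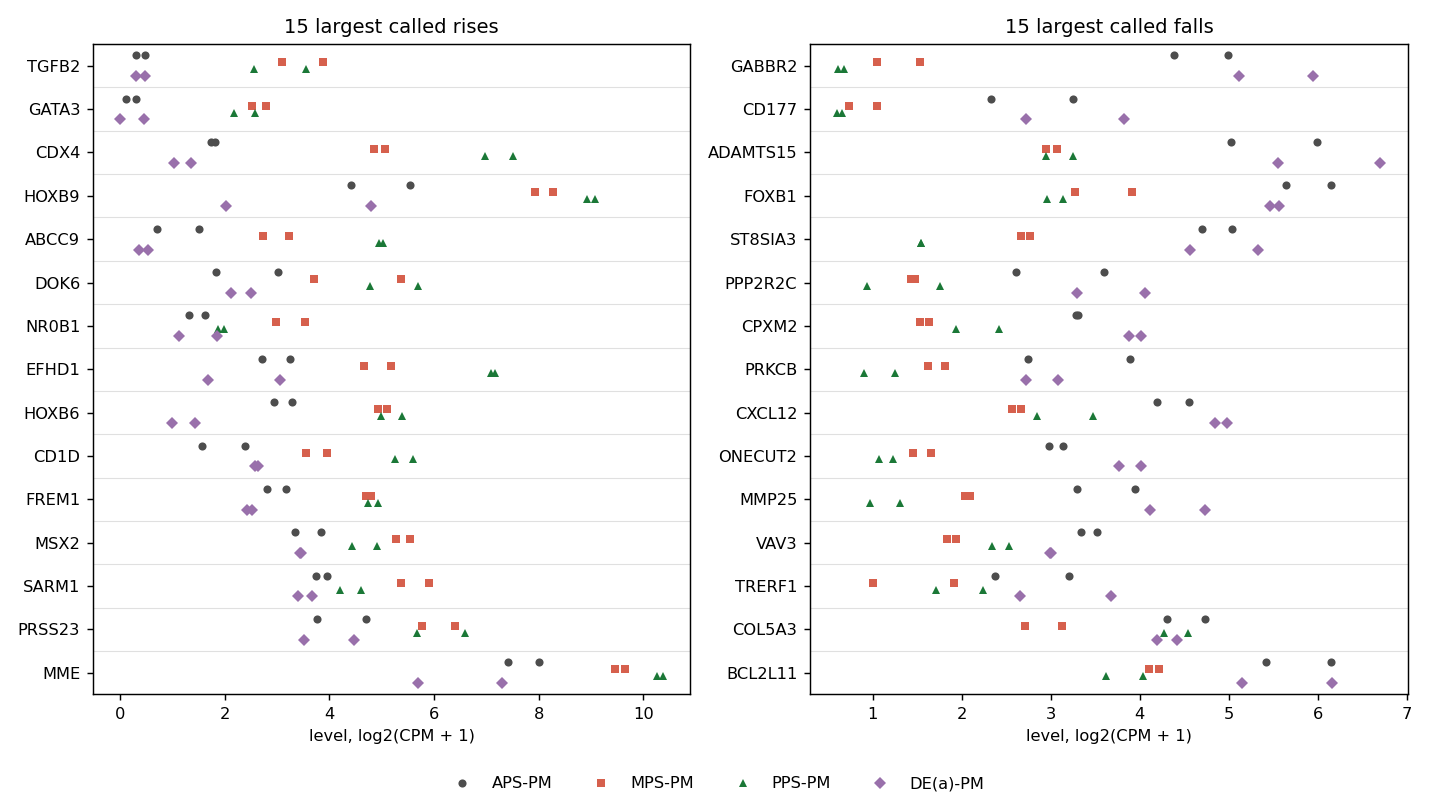
The level of each of the 15 largest called rises (left) and falls (right) in MPS-PM against APS-PM is plotted as log2(CPM + 1) for both libraries of APS-PM, MPS-PM, PPS-PM and DE(a)-PM. For each gene the red MPS-PM points lie apart from the gray APS-PM points, and for GABBR2 the MPS-PM libraries are at 1.07 and 1.90 CPM against 19.8 and 30.8 CPM in APS-PM.

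Among called genes at 5 CPM or more in a group, the largest fall was that of GABBR2, a subunit of the GABA-B receptor, whose gene spans chr9:98288109-98708935. It was at 19.8 and 30.8 CPM in APS-PM and at 1.07 and 1.90 CPM in MPS-PM, and the level fell by 4.07 on the log2 scale (SE 0.41, adjusted p = 0.000132). It had the smallest adjusted p of all genes, and the value was at most 0.00547 without any of the libraries. FOXB1, a forkhead factor of the neural tube and hindbrain, fell from 69.8 and 48.7 CPM to 14.1 and 8.64 CPM (adjusted p = 0.00166). CXCL12, the chemokine that binds CXCR4, fell from 22.5 and 17.3 CPM to 5.36 and 4.92 CPM (adjusted p = 0.00233). Its receptor CXCR4 was at 232 and 266 CPM in APS-PM and at 234 and 335 CPM in MPS-PM (adjusted p = 1). FOXB1 and CXCL12 lost their calls without MPS-PM replicate 2 (adjusted p = 0.060 and 0.0619).

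Further falls are given with their levels. ADAMTS15, a secreted metalloprotease, was at 62.6 and 31.5 CPM in APS-PM and at 7.39 and 6.69 CPM in MPS-PM (adjusted p = 0.00348). CPXM2, a protein of the carboxypeptidase family, was at 8.89 and 8.75 CPM against 1.89 and 2.11 CPM (adjusted p = 0.00574). MMP25, a membrane-anchored metalloprotease, was at 14.4 and 8.80 CPM against 3.11 and 3.26 CPM (adjusted p = 0.0162). COL5A3, a chain of type V collagen, was likewise lower, at 25.5 and 18.7 CPM against 5.55 and 7.75 CPM (adjusted p = 0.00287). The other genes of the 15 largest falls were CD177, ST8SIA3, PPP2R2C, PRKCB, ONECUT2, VAV3, TRERF1 and BCL2L11, with differences between -2.84 and -1.71. BCL2L11, which encodes the pro-apoptotic protein BIM, was at 41.8 and 69.5 CPM in APS-PM and at 16.2 and 17.6 CPM in MPS-PM (adjusted p = 0.00287). Of these 12 genes, VAV3 lost its call without MPS-PM replicate 2 (adjusted p = 0.071), and the other 11 lost theirs without 2 or more of the libraries, with adjusted p of up to 0.714.

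Markers of neural and neuromesodermal cells were lower in MPS-PM where they were called. Of 14 tested, 2 were called lower and 0 higher, where 0.251% and 0.196% of all genes were. The median difference was -0.84, in a range from -1.75 to 2.44. The list summed to 1192 and 1325 CPM in APS-PM and to 745 and 847 CPM in MPS-PM, and most of that sum is NES. In 6 of the 14 both MPS-PM libraries lay below both APS-PM libraries, as in 17.3% of all genes. ZIC5, a zinc finger factor of dorsal neural tissue, fell from 31.4 and 31.9 CPM to 11.7 and 12.7 CPM (-1.37 ± 0.28, adjusted p = 0.0278). NES, the intermediate filament nestin, fell from 771 and 943 CPM to 544 and 545 CPM (-0.65 ± 0.13, adjusted p = 0.0278). ZIC2 differed by -1.33 and was not called (adjusted p = 0.208). SOX2, a defining neural factor, was at 3.68 and 0.854 CPM in APS-PM and at 0.949 and 0.390 CPM in MPS-PM (adjusted p = 0.906). The calls of ZIC5 and NES were lost without each of the libraries in turn, with highest adjusted p of 0.247 and 0.341. PRDM14, a factor of pluripotent and germ cells, was the only called gene of 14 pluripotency genes, at 2.26 and 1.19 CPM against 0.252 and 0.279 CPM (adjusted p = 0.0162). SEMA3E, a guidance ligand, was the only called gene of 39 semaphorins, ephrins, slits and their receptors, at 3.65 and 4.65 CPM against 1.26 and 0.725 CPM (adjusted p = 0.0103). PRDM14 lost its call without 3 of the 4 libraries, every one but APS-PM replicate 2, with a highest adjusted p of 0.255, and SEMA3E lost its call without APS-PM replicate 2 and without MPS-PM replicate 2, with a highest of 0.186.

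Genes of the paraxial lineage itself showed 0 calls, where 0.447% of all genes were called. At that share 0 calls in a list this short says little about its genes. Of 17 presomitic and clock genes 0 were called, and the median difference was -0.09. The difference of TBX6 was -0.09 with a 95% interval from -0.57 to 0.40, an interval that spans both directions. DLL3, a Notch ligand of the presomitic mesoderm, was at 667 and 785 CPM in APS-PM and at 562 and 928 CPM in MPS-PM (adjusted p = 1). Of 12 early somite genes 0 were called, 5 lay below and 3 above both APS-PM libraries (17.3% and 13.0% of all genes), and the list summed to 689 and 802 CPM in APS-PM and to 391 and 479 CPM in MPS-PM. Most of that sum is ALDH1A2, the enzyme that makes retinoic acid in somites, at 327 and 495 CPM against 194 and 263 CPM (adjusted p = 0.863), and FOXC1, a forkhead factor of paraxial mesoderm, at 335 and 298 CPM against 179 and 207 CPM (adjusted p = 0.681). Of 15 retinoic acid genes 1 was called, the receptor RARG, which rose from 57.3 and 54.7 CPM to 86.8 and 91.0 CPM (0.68 ± 0.13, adjusted p = 0.0162, and not called without any of the 4 libraries, at 0.0946 or above).

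Lateral mesoderm genes and targets of BMP were mostly higher in MPS-PM without passing the test. In the lateral and cardiac list 10 of 17 genes lay above both APS-PM libraries and 2 lay below, where 13.0% and 17.3% of all genes did. In this list 0 were called, where 0.447% of all genes were. HAND1, the lateral mesoderm factor, was at 3.71 and 2.35 CPM in APS-PM and at 20.6 and 9.57 CPM in MPS-PM (2.31 ± 0.55, adjusted p = 0.0794). TBX3, a T-box factor, was at 38.2 and 40.5 CPM against 90.5 and 64.0 CPM (adjusted p = 0.0913). By DESeq2 both HAND1 and TBX3 were called. In the list of 14 BMP targets 9 lay above both APS-PM libraries and 0 below (13.0% and 17.3% of all genes), and the median difference was 0.86. MSX2, a homeobox target of BMP, was the called member, at 13.3 and 9.17 CPM in APS-PM and at 45.4 and 37.8 CPM in MPS-PM (1.89 ± 0.32, adjusted p = 0.0103). Its paralog MSX1 was at 103 and 93.7 CPM against 118 and 119 CPM (adjusted p = 1), and ID3, another direct target, at 182 and 92.0 CPM against 168 and 105 CPM (adjusted p = 1). DESeq2 called 4 of the BMP targets, all higher (ID1, MSX2, SMAD7 and VENTX), among 87 genes that it called higher. BMP4 transcripts themselves were at 63.2 and 70.0 CPM against 110 and 111 CPM (adjusted p = 0.78).

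The other signaling lists gave few calls, where 0.447% of all genes were called. At that share few calls in lists this short say little about their genes. Of 15 nodal and activin genes TGFB2 alone was called, and of 22 BMP ligands and modulators, 14 WNT ligands, 18 WNT feedback targets, 21 FGF and ERK response genes and 19 Notch genes, 0 were. The WNT ligand list summed to 619 and 560 CPM in APS-PM and to 1219 and 1092 CPM in MPS-PM. Most of that sum is WNT5A and WNT5B, ligands known for signaling without beta-catenin. WNT5A was at 321 and 240 CPM against 702 and 379 CPM (adjusted p = 0.154), and WNT5B at 175 and 217 CPM against 423 and 642 CPM (adjusted p = 0.131). LEF1, a nuclear mediator and target of WNT, was at 401 and 445 CPM against 398 and 439 CPM (adjusted p = 1). DESeq2 called both WNT5A and WNT5B higher.

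Lists of other cell types and states were also read. Of all genes 0.447% were called, so 0 calls in a short list says little about its genes. No gene was called among 15 blood and endothelial progenitor genes, 12 primitive streak genes, 13 node and notochord genes, 13 definitive endoderm genes and 11 primordial germ cell genes. The primitive streak factor TBXT was at 133 and 336 CPM in APS-PM and at 170 and 350 CPM in MPS-PM (adjusted p = 1), with a larger gap between replicates than between groups. KDR, a receptor of endothelial and blood progenitors, was at 31.3 and 16.7 CPM against 42.0 and 47.5 CPM (adjusted p = 0.825). Among 25 EMT genes 0 were called, and the cadherin genes CDH2 and CDH11 differed by -0.04 and 0.06. CDH1 was at 35.0 and 22.2 CPM in APS-PM and at 17.3 and 18.8 CPM in MPS-PM (adjusted p = 0.64). Among 31 collagen and matrix genes 11 lay above both APS-PM libraries and 3 below (13.0% and 17.3% of all genes), and 0 were called. Of 30 hypoxia and glycolysis genes 0 were called, and 9 lay below both APS-PM libraries (17.3% of all genes), among them the glucose transporter SLC2A1, picked out after its values were seen, at 623 and 353 CPM against 172 and 215 CPM (adjusted p = 0.071). Of 27 cell cycle genes 0 were called and 0 had an unadjusted p of edgeR under 0.05, where 1101 of all 17895 genes had.

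The next question was how much of the day 1 difference was still present after PM medium. The 24 h libraries of APS and MPS cells are separate samples, so no library is shared with the 48 h comparison. At 24 h, 524 genes were called (2.93%), 339 higher in MPS cells (1.89%) and 185 lower (1.03%). Of the 35 genes higher in MPS-PM, 18 (51.4%) had been called higher at 24 h, which is 5.31% of the 339. Of the 45 genes lower in MPS-PM, 17 (37.8%) had been called lower at 24 h, which is 9.19% of the 185. The shared rises included TGFB2, GATA3, CDX4, HOXB6, HOXB9, HOXA9, MSX2 and ABCC9, and the shared falls GABBR2, FOXB1, ST8SIA3, ONECUT2, CD177, COL5A3 and PRDM14.

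Read in the other direction, genes called at 24 h had smaller median differences at 48 h. They were chosen by their 24 h calls, which enlarges their 24 h values, so these medians alone do not show a loss. Genes chosen at 48 h showed the reverse. The 35 rises and 45 falls had median sizes of 1.87 and 1.71 at 48 h, and median differences of 0.89 and -0.87 at 24 h. Of the 339 genes higher in MPS cells at 24 h, 265 (78.2%) were also higher in MPS-PM, where 47.9% of all genes were, and their median difference was 1.62 at 24 h and 0.34 at 48 h. Of the 185 lower genes, 151 (81.6%) were also lower, where 50.5% of all genes were, and their median went from -1.43 to -0.45. FREM1 was the exception that was called in opposite directions. It was at 34.6 and 26.9 CPM in APS cells and at 12.2 and 9.11 CPM in MPS cells at 24 h (-1.51, adjusted p = 0.000517), and higher in MPS-PM at 48 h. Of 37 HOX genes tested, 17 were called higher at 24 h, where 1.89% of all genes were, and 3 at 48 h, where 0.196% were.

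**Figure D4:**
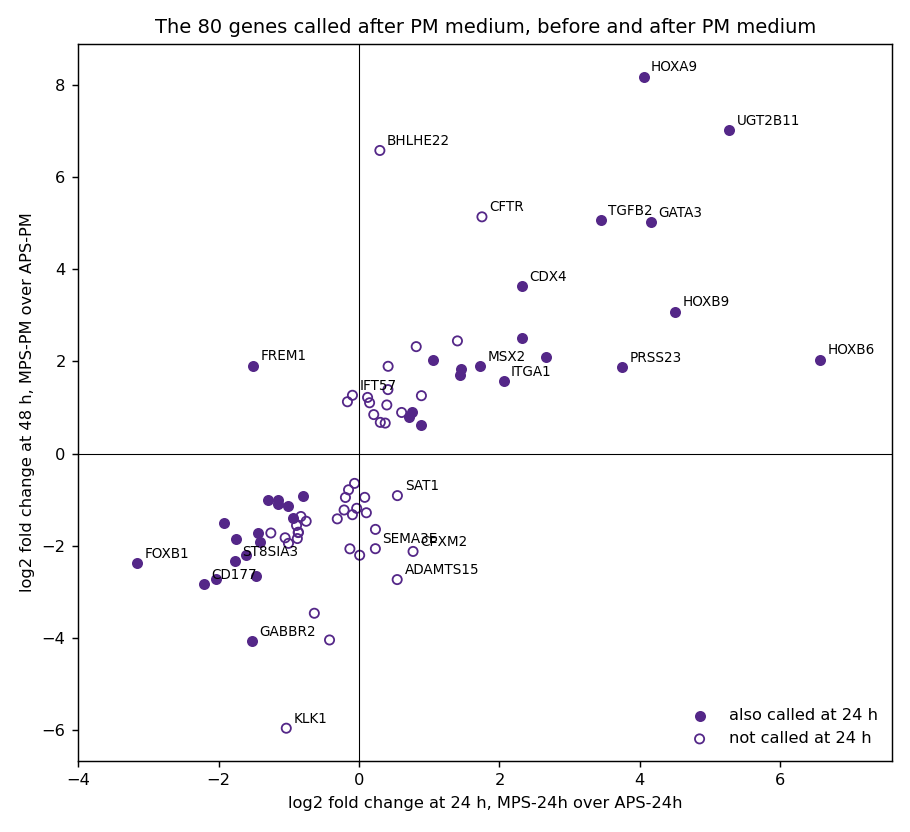
Each point is 1 of the 80 genes called in MPS-PM against APS-PM, with the log2 fold change of MPS over APS cells at 24 h on the x axis and that of MPS-PM over APS-PM at 48 h on the y axis. Filled points were also called at 24 h, and of these FREM1 alone lies on opposite sides of 0, at -1.51 at 24 h and 1.90 at 48 h.

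Whether a difference changed between the days was tested with an interaction term, (MPS-PM minus APS-PM) minus (MPS minus APS at 24 h), which called 54 genes (0.302%), 10 with a higher (0.0559%) and 44 with a lower value (0.246%) after PM medium. The term contains the libraries of the 48 h comparison. Most genes of the lists among them were higher in MPS cells at 24 h and, apart from HOXB6, were not called at 48 h. SEMA3E was called at 48 h, as a fall, and not at 24 h. MSGN1 was at 2.65 and 2.84 CPM in APS cells and at 52.5 and 60.4 CPM in MPS cells at 24 h, and between 49.7 and 68.8 CPM in all 4 libraries of the PM comparison (interaction -4.11, adjusted p = 1.54e-05). HOXB2 was at 1.23 and 0.687 CPM against 35.6 and 21.8 CPM at 24 h, and between 76.0 and 89.4 CPM at 48 h (interaction -4.86, adjusted p = 0.00103). ALDH1A2 was at 1.51 and 1.28 CPM against 50.8 and 21.7 CPM at 24 h, while at 48 h APS-PM was at 327 and 495 CPM and MPS-PM at 194 and 263 CPM (interaction -5.55, adjusted p = 0.000313). In APS cells these transcripts were thus low at 24 h and far higher at 48 h, a step that was not tested. HOXB6 took another course, since MPS cells were at 71.4 and 69.3 CPM at 24 h and MPS-PM cells at 33.4 and 29.4 CPM at 48 h (interaction -4.54, adjusted p = 0.00495).

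HOXB9 and CDX4 had higher levels in MPS-PM than in MPS cells at 24 h, a step between days that was not tested. HOXB9 was at 1.66 and 2.70 CPM in APS cells and at 49.2 and 48.6 CPM in MPS cells at 24 h, and at 242 and 308 CPM in MPS-PM. CDX4 was at 1.29 and 0.458 CPM in APS cells and at 3.20 and 5.44 CPM in MPS cells at 24 h, and at 27.9 and 32.2 CPM in MPS-PM. Neither interaction of the MPS against APS difference with the day was called (adjusted p = 0.919 and 0.874). GATA3 instead was at 34 and 36 CPM in MPS cells at 24 h and at 5.86 and 4.77 CPM in MPS-PM, with APS cells lower on both days. TGFB2 was at 12.5 and 8.54 CPM in MPS cells at 24 h, near its level in MPS-PM.

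The same day 1 treatments were also followed by DE(b) medium (the second step of the endoderm protocol) or LM medium (for lateral mesoderm), again in separate libraries. DE(b) medium held activin (100 ng/ml) and LDN-193189 (250 nM). LM medium held BMP4 (30 ng/ml), A-8301 (1 µM) and the WNT inhibitor IWP2 (4 µM), so both groups received BMP4 there. MPS and APS cells differed in 235 genes after DE(b) medium (1.31%) and in 679 after LM medium (3.79%). Of the 35 genes higher in MPS-PM, 11 were called higher after DE(b) medium (31.4%, or 6.79% of the 162 that make up 0.905% of all genes) and 9 after LM medium (25.7%, or 2.88% of the 313 that make up 1.75% of all genes), with 2 called in the opposite direction after LM medium. Of the 45 lower genes, 3 were called lower after DE(b) medium (6.67%, or 4.11% of the 73 that make up 0.408% of all genes) and 14 after LM medium (31.1%, or 3.83% of the 366 that make up 2.05% of all genes), with 1 in the opposite direction. PRSS23 was called higher in MPS cells at 24 h and after all 3 media. GATA3, HOXB6, HOXB9, MSX2 and CD1D were called higher after DE(b) medium and not after LM medium, where APS cells reached the level of MPS cells for GATA3. GATA3 was at 38.7 and 50.9 CPM in APS-LM and at 36.2 and 63.1 CPM in MPS-LM, and its difference after PM medium exceeded that after LM medium by 4.81 (adjusted p = 0.00295). The same term was called for CD1D (2.84, adjusted p = 0.00223) and not for MSX2, HOXB6 or HOXB9 (adjusted p = 0.0803, 0.472 and 0.752). The term contains the PM libraries by which these genes were chosen.

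Differences between the media were tested in the same way. The interaction called 24 genes for PM against DE(b) medium (0.134%), 7 of them among the 80. For PM against LM medium it called 96 (0.536%), 16 of them among the 80. These terms contain the PM libraries by which the 80 were chosen, which favors such an overlap. FREM1 was called against both media. It was at 204 and 239 CPM in APS-DE(b) and at 145 and 165 CPM in MPS-DE(b), at 139 and 130 CPM in APS-LM and at 61.7 and 40.0 CPM in MPS-LM, so MPS cells were the lower group outside PM medium. TGFB2 was at 0.276 and 0.543 CPM in APS-DE(b) and at 0.422 and 0.837 CPM in MPS-DE(b), at 20.5 and 14.7 CPM in APS-LM and at 21 and 17 CPM in MPS-LM. Its difference was thus seen at 24 h and after PM medium, and the interactions were 4.47 against DE(b) and 4.90 against LM medium (adjusted p = 0.0496 and 0.00295). GABBR2 was lower in MPS cells after PM and LM medium and at 24 h, and overlapped between the groups after DE(b) medium, at 4.14 and 3.53 CPM against 4.64 and 3.80 CPM (interaction -4.20, adjusted p = 0.00184). IFT57 was between 20.0 and 35.1 CPM in all 8 libraries of APS and MPS cells after DE(b) and LM medium, where the groups did not differ by a called amount.

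**Figure D5:**
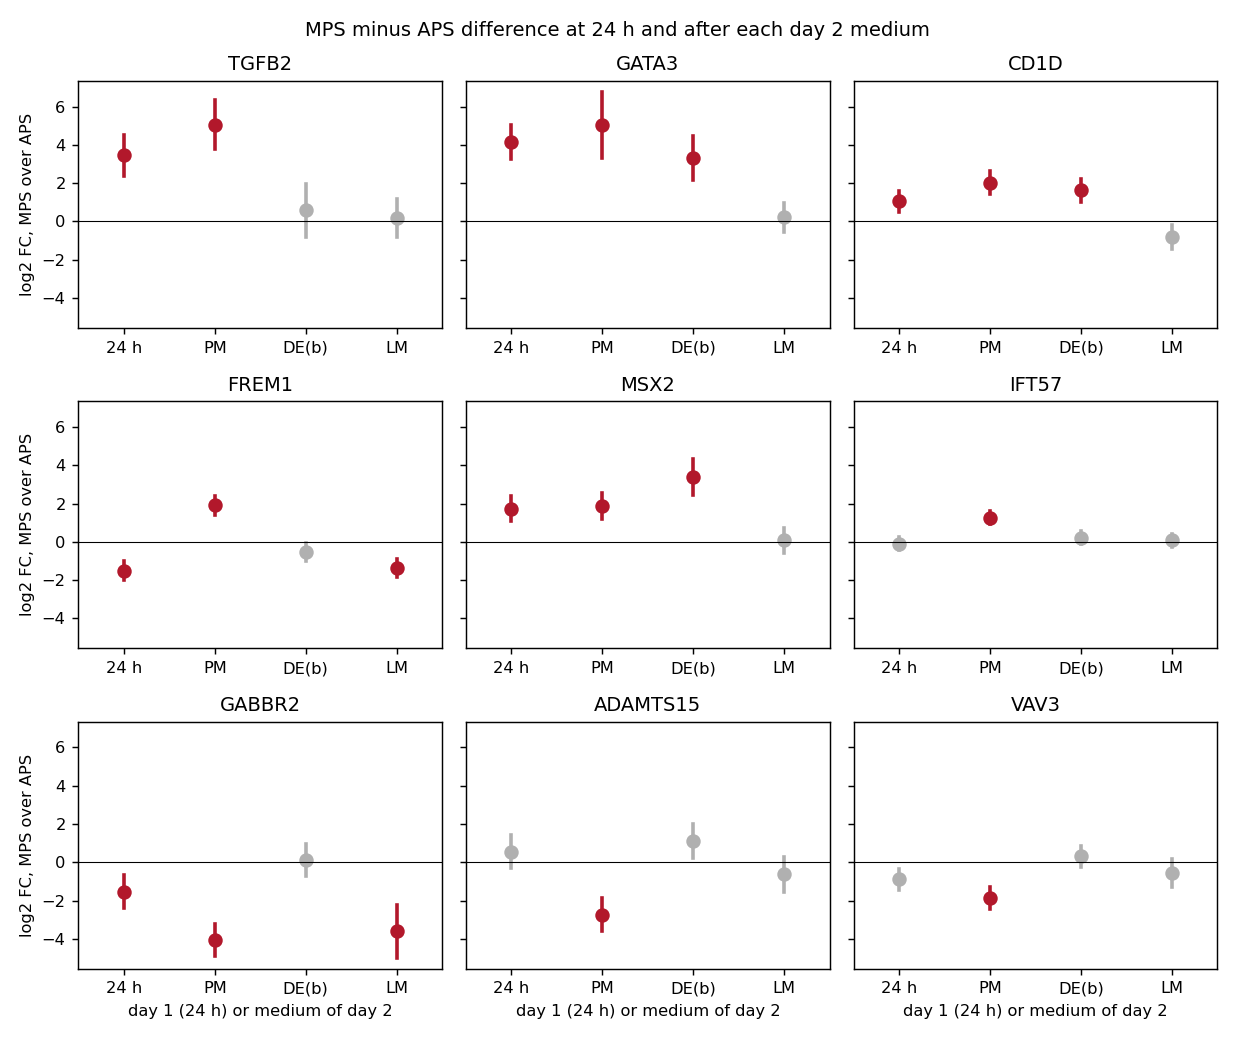
For 9 genes the log2 fold change of MPS over APS cells is plotted with its 95% interval at 24 h and after PM, DE(b) and LM medium, and colored points were called. FREM1 is above 0 after PM medium and below 0 in the other 3 settings, and TGFB2 and GATA3 are near 0 after LM medium.

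Last, MPS-PM was set beside the other cells that had received PM medium. PPS-PM cells differ from MPS-PM on day 1 by the absence of activin, and DE(a)-PM cells were given DE(a), the first step of the endoderm protocol, on day 1. DE(a) held 100 ng/ml activin and 2 µM CHIR99021, with 0 ng/ml bFGF and 0 ng/ml BMP4. These comparisons share libraries with MPS-PM against APS-PM, so their values are given side by side and not as separate support. MPS-PM differed from PPS-PM in 184 genes (1.03%), 63 higher (0.352%) and 121 lower (0.676%). CDX4 was at 181 and 125 CPM in PPS-PM and at 1.03 and 1.57 CPM in DE(a)-PM, so MPS-PM stood between, at 27.9 and 32.2 CPM, and its difference from PPS-PM was called (-2.35 ± 0.48, adjusted p = 0.0192). IFT57 was at 343 and 320 CPM in PPS-PM against 115 and 120 CPM in MPS-PM (-1.50 ± 0.16, adjusted p = 2.61e-05). ABCC9, EFHD1 and CD1D were likewise called lower in MPS-PM than in PPS-PM, with differences of -2.14, -2.22 and -1.76. ZIC5 was at 2.12 and 2.43 CPM in PPS-PM, below the 11.7 and 12.7 CPM of MPS-PM (2.42 ± 0.31, adjusted p = 0.00019). For these genes MPS-PM lay between APS-PM and PPS-PM.

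For other genes the difference from PPS-PM was not called. GATA3 was at 4.98 and 3.53 CPM in PPS-PM and TGFB2 at 4.87 and 10.7 CPM, and their differences from MPS-PM, 0.32 ± 0.42 and 0.43 ± 0.48, were not called (adjusted p = 0.85 and 0.818). HOXB6 was at 40.7 and 30.8 CPM in PPS-PM and overlapped with MPS-PM. COL5A3 was lower in MPS-PM than in either group, at 18.3 and 22.3 CPM in PPS-PM against 5.55 and 7.75 CPM (-1.61 ± 0.26, adjusted p = 0.00209). Among the largest rises of MPS-PM over PPS-PM were GRAP2, an adaptor protein (3.45), and HAND1 (3.10). The largest falls against PPS-PM were ACTA1, skeletal muscle actin, TNMD, tenomodulin, and PPP1R14C, an inhibitor of protein phosphatase, with differences of -4.34, -4.18 and -3.75. ACTA1 was at 33.0 and 19.0 CPM in PPS-PM and at 1.77 and 0.836 CPM in MPS-PM, near the 0.239 and 0.341 CPM of APS-PM.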

How the data were processed

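RNA sequencing gene tables of 34 libraries (17 conditions, 2 replicates) were used. The authors quantified reads with Salmon 1.10.2 against GRCh38, with R 4.4.2, and the deposited values are estimated counts per gene, not normalized for depth or length. Gene lengths and TPM were not used here, and 0 columns were left unmatched.

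Expected counts were rounded and fitted in R 4.3.3 with edgeR 4.0.16 (TMM, filterByExpr by condition, 17895 of 37951 identifiers kept, a mean per condition over all 34 libraries, quasi-likelihood tests, Benjamini-Hochberg adjustment at 0.05). Residual degrees of freedom were 17 and the common dispersion 0.0611. SE and 95% intervals come from this fit. Where a group had no count, no SE is given, and a fold is a lower bound against 3 counts per library. CPM is the count over the library total. Symbols held by several identifiers are shown by the identifier with the most counts, except in a fit of counts summed by symbol, an alternative chosen after seeing the data. Positions come from GENCODE v44 and promoters from RefSeq.

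Named genes are the 15 largest rises and falls among called genes at 5 CPM or more in a group with separate libraries, called members of 27 lists, up to 4 further members per list with the highest levels, genes of the HOXB and HOXC clusters and markers named in the rule, and the 3 largest changes of each other comparison. Members and lists were chosen with earlier results of these data known. Alternatives were RLE, no filter, a replicate term, DESeq2 1.42.0, glmTreat at a fold of 1.2, fits of the 4 compared or the 8 PM libraries alone, and each library left out. The main edgeR fit was checked on simulated counts, and the alternatives were not. Results of a few genes are not reported here.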

Additional observations from a re-analysis of the deposited data

Results flagged for a closer look

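Each of these genes had a difference of MPS and APS cells after PM medium that departed from their difference in another setting, by the interaction term of edgeR with an adjusted p under 0.05. The values are log2 units, positive where MPS cells stood higher relative to APS cells after PM medium. The term contains the libraries of MPS-PM against APS-PM, so genes called there are favored. No explanation was tested for any of them.

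Against the difference at 24 h, anterior and central HOX genes had lower values, with -5.90 for HOXB5, -4.86 for HOXB2, -4.72 for HOXB4, -4.54 for HOXB6 and -3.23 for HOXB1. The presomitic genes MSGN1 and HES7 had -4.11 and -3.09, the somite genes ALDH1A2 and PAX3 had -5.55 and -5.14, and the chemokine receptor CXCR4 had -4.31. The BMP antagonist NOG had -3.95, the protocadherin PCDH19 -2.34, fibronectin FN1 -2.01 and the zinc finger factor SALL1 -1.31. Of the genes called at 48 h, ADAMTS15 had -3.28, CPXM2 -2.89, SEMA3E -2.30 and SAT1 -1.46, while IFT57 had 1.36 and FREM1 3.41. FZD5, a WNT receptor, had 2.05 and PCDH20 had 2.28. FZD5 was at 39.8 and 50.4 CPM in APS cells and at 10.4 and 13.0 CPM in MPS cells at 24 h, and between 5.01 and 5.99 CPM in the 4 libraries at 48 h.

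Against the difference after DE(b) medium, lower values were found for HOXB5 (-10.67), HOXB6 (-9.16), HOXB4 (-4.91), GABBR2 (-4.20) and ADAMTS15 (-3.83). Lower values were also found for LGR5, a gene associated with WNT signaling (-3.34), HOXB2 (-3.21), VAV3 (-2.15) and SPON1 (-1.85). Higher values were found for FREM1 (2.43), TGFB2 (4.47) and BHLHE22 (8.26). HOXB5 and HOXB6 had no count in APS-DE(b) and BHLHE22 had none in APS-PM, so these fitted values depend on the prior count and are no bounds.

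Against the difference after LM medium, lower values were found for HOXC6 (-8.98), SLC39A2 (-8.82), URAD (-7.04), TOGARAM2 (-6.61), CDX2 (-4.47), COL4A1 (-2.32), PMEPA1 (-2.20), COL4A2 (-2.06), SLC1A1 (-1.81), SPON1 (-1.81), BCL2L11 (-1.67), SLC29A1 (-1.20), LAMB1 (-1.11) and CCND1 (-1.10). CDX2 was at 0.722 and 2.15 CPM in APS-LM and at 29.0 and 43.5 CPM in MPS-LM. Higher values were found for RARG (0.99), IFT57 (1.18), SLC7A2 (1.59), HS3ST3A1 (1.70), AP3B2 (1.81), COL9A2 (2.14), COL2A1 (2.16), EPHA4 (2.31), CD1D (2.84), VENTX (2.87), LGR5 (2.96), DOK6 (3.25), FREM1 (3.27), SP8 (3.65), GATA3 (4.81), TGFB2 (4.90), BHLHE22 (8.65) and PSKH2 (11.96). A group without a count stands behind the values of HOXC6, URAD, SLC39A2, BHLHE22 and PSKH2, which are therefore no bounds either. PSKH2 was at 0.126 and 0.167 CPM in MPS-PM, at the floor of 3 counts or below.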

How the results depend on the processing

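With 2 replicates a group, the calls depend on the shared estimate of spread. Of 80 called genes, 79 were also called with RLE normalization, 76 with no filter, 80 with a replicate term, 78 by DESeq2, 39 by glmTreat at a fold of 1.2 and 80 with counts summed by symbol, and no called gene changed direction under any of the 12 alternatives. Fitting the 4 compared libraries alone called 2 genes (CDX4 and a PPP1R10 identifier, described among the other observations) and fitting the 8 PM libraries alone called 1 (CDX4), where 1101 genes had an unadjusted p below 0.05 with the fit of all libraries. The total of calls was 80 with RLE, 525 with no filter, 214 by DESeq2, 39 by glmTreat and 98 with counts summed by symbol, and 12 to 56 when a library was left out (13 without APS-PM replicate 1, 56 without APS-PM replicate 2, 24 without MPS-PM replicate 1 and 12 without MPS-PM replicate 2). Calls held without each of the 4 libraries for 6 genes.

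The replicate block gave 120 calls. The deviations of MPS-PM and APS-PM libraries with the same number correlated at 0.42, the 6 pairs of PM conditions at 0.42 to 0.64 and all 136 pairs of conditions at -0.29 to 0.64, with 101 over 0.1, and the sources do not say that a number marks a shared day, so the numbers were not taken as pairs. The block gave 704 calls for MPS against APS cells at 24 h, 315 for MPS-PM against PPS-PM, and 97, 56 and 160 for the interactions of PM with 24 h, DE(b) and LM medium.

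With no filter these 5 comparisons gave 1144, 825, 518, 476 and 642 calls, and with DESeq2 792, 414, 166, 123 and 246. RLE normalization gave 37 for PM against DE(b) medium. With a library left out the ranges were 225 to 263, 75 to 229, 19 to 42, 9 to 23 and 32 to 155, the last highest without APS-LM replicate 2. The distance between MPS-PM and APS-PM was 65.1 with a pseudocount of 0.1 and 47.9 with no filter. In these 2 settings replicates lay 82.5 and 62.6 apart in APS-PM and 81.4 and 59.8 apart in MPS-PM. The cause of these shifts was not tested. Among list members not called in the report, DESeq2 called 20, HAND1, TBX3, HOXC8, WNT5A, WNT5B, ZIC2, ID1, TFAP2A and SLC2A1 among them, and the fit with no filter called 74. The replicate block called HAND1, HOXB8, ID1 and WNT5B, and counts summed by symbol called HOXB8 and SLC2A1. Without APS-PM replicate 2, 3 were called, SLC2A1 and HEYL among them. Depth limits genes near 1 CPM, where a library holds about 20 counts.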

Other observations

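The matrix and guidance lists gave a single call between them, and further values are given here. Versican (VCAN), a large matrix proteoglycan, was at 435 and 518 CPM in APS-PM and at 756 and 716 CPM in MPS-PM (adjusted p = 0.323), and COL5A1, a fibrillar collagen, at 430 and 426 CPM against 546 and 513 CPM (adjusted p = 0.945). COL1A2 went the other way, at 1638 and 1821 CPM against 1112 and 1365 CPM (adjusted p = 0.910). FN1 was at 631 and 542 CPM against 1017 and 848 CPM (adjusted p = 0.646). In the guidance list 11 of 39 genes lay below both APS-PM libraries and 6 above, where 17.3% and 13.0% of all genes did.

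BMP3, picked out after its values were seen, was at 6.86 and 26.3 CPM in APS-PM and at 0.504 and 1.39 CPM in MPS-PM, and was not called (adjusted p = 0.166), with a wide gap between the APS-PM libraries.

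Some symbols are held by several identifiers, and counts can move between these from library to library. Of 35940 symbols, 1034 had more than 1 identifier, and 3045 of the 37951 identifiers shared a symbol. None of the 80 called genes was among them. Of 17 identifiers with no count in either library of one group and a mean of 5 CPM or more in the other, 16 shared a symbol, and edgeR called 0 of the 17. For PPP1R10, identifier ENSG00000204569 was at 0 and 0 CPM in APS-PM and at 56.5 and 73.9 CPM in MPS-PM, while the sum over its identifiers was 81.1 and 105 CPM against 74.5 and 93.6 CPM. For WNT3, identifier ENSG00000277626 was at 15.1 and 11 CPM against 0 and 10.5 CPM, while the sum was 16 and 11.3 CPM against 15.3 and 13.0 CPM. The large differences of these identifiers were therefore not seen in the sums.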
